A study of Saccharomyces cerevisiae with 12 samples.

Results

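The comparison of nitrogen limitation with carbon limitation in the reference strain rests on 6 of the 12 arrays of the series, 3 from nitrogen-limited and 3 from carbon-limited chemostat cultures of Saccharomyces cerevisiae CEN.PK113-7D. The arrays were chosen by their titles, and all genes with a probe set of their own were followed. This strain is a haploid, prototrophic baker's yeast of mating type a (MATa) with an intact LEU3 gene. The series as a whole asks which transcripts depend on Leu3, the activator of leucine synthesis genes. For that purpose, it also holds 6 arrays of CEN.PK540-3A, a MATa strain in which LEU3 is replaced by a loxP-flanked kanamycin marker.

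Nitrogen-limited cultures of the reference strain were fed 1.0 g/l ammonium sulfate, with 5.3 g/l potassium sulfate, and 59 g/l glucose, which left about 17 g/l glucose unused. Carbon-limited cultures of the same strain received 6.0 g/l ethanol as the carbon source and 5.0 g/l ammonium sulfate. The nitrogen-limited deletion strain was fed 53 g/l glucose, and its other conditions matched those of the reference. All cultures were aerobic, with dissolved oxygen above 50% of air saturation, and held at pH 5.0 and 30 °C. Fresh medium replaced 0.10 of the volume per h, so the growth rate was the same on both feeds. They were sampled at steady state, between 10 and 14 volume changes. Which nutrient limits growth and which carbon source is fed differ at the same time between the groups, and their effects cannot be told apart. The labels number the arrays of a group separately but do not say that each came from its own chemostat, so the p-values measure only the spread between these samples, which may be technical.

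A yeast cell with glucose in excess represses the genes for other carbon sources through the Mig1 repressor and the Snf1 kinase, and ferments part of the sugar even in air. On ethanol the cell has to oxidise the alcohol to acetate, respire it, and build sugars from it through the glyoxylate cycle and gluconeogenesis. When good nitrogen sources run short, the GATA activators Gln3 and Gat1 release nitrogen catabolite repression, which opens uptake and breakdown routes for poorer sources such as allantoin, urea, proline and peptides.

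Each array gave 9335 probe set intensities, of which 6504 belonged to 1 gene and covered 5656 genes. Rank correlations (Spearman, over probe sets) between arrays ran from 0.981 to 0.984 within the nitrogen-limited group and from 0.959 to 0.973 within the carbon-limited group, against 0.912 to 0.944 between the groups. LEU3 itself read 110.4, 96.3 and 101 under nitrogen limitation, against 76.7, 62.4 and 59.9 under carbon limitation in the reference strain and 0.6 or less on all arrays of the deletion strain. The carbon-limited arrays were not alike in RNA quality. The 3'/5' signal ratio of actin, which increases when labelled transcripts are shortened, was 2.45, 2.55 and 3.29 on the nitrogen-limited arrays, against 3.31, 9.27 and 13.98 on the carbon-limited ones, and lay between 1.54 and 1.91 in the deletion strain. Its part in the differences between the groups was not tested directly, but the counts with this ratio as a term in the fit stand beside the results below. Every carbon-limited array had a higher ratio than every nitrogen-limited one, so the term overlaps with the comparison and costs precision. A call lost with it therefore does not show that RNA quality made the change. Only the second and the third nitrogen-limited arrays carried the added bacterial control transcript ThrX, at 3094.8 and 2747.7, against 1.6 or less on the other arrays.

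Values below an intensity of 12 were set to 12, log2 was taken, and 5257 genes above 12 on at least 3 of the 6 arrays were tested with limma. At an adjusted p under 0.05, 1996 genes differed, 38% of those tested. Of these, 1363 were higher under nitrogen limitation, 25.9% of the genes tested, and 633 were lower, 12% of them. The counts given for gene lists below stand against these shares. The median change over all genes was 0.20 on the log2 scale, so the split leans on how the arrays are scaled: with each array centred on its own median, which shifts all changes by -0.27, 681 genes were higher and 1067 lower. With the actin ratio as a term 444 genes were higher and 293 lower. Gene length moved with the result. With the genes ordered by length into 3 equal groups, the median log2 change was 0.02 in the shortest, 0.24 in the middle and 0.34 in the longest, against -0.03, 0.06 and 0.06 in the deletion strain, and the part of length was not tested.

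The groups did not overlap for 2683 of the genes tested, 51%, and for 1946 of the 1996 called, so groups apart are the usual case for a called gene. Large changes leaned the other way. Among the called genes 478 were at least 2-fold higher and 293 at least 2-fold lower, whereas 76 were at least 4-fold higher and 112 at least 4-fold lower. At 16-fold or more, 9 genes were higher and 40 lower. All 96 named genes with a change of at least 4-fold kept their call under every alternative in which they were tested. A gene near 12 in one group is not tested in some fits with fewer arrays. Many smaller changes lost their call under some alternative. Each array averages a whole culture, so a change in some of the cells and a change in all of them cannot be told apart.

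**Figure D1:**
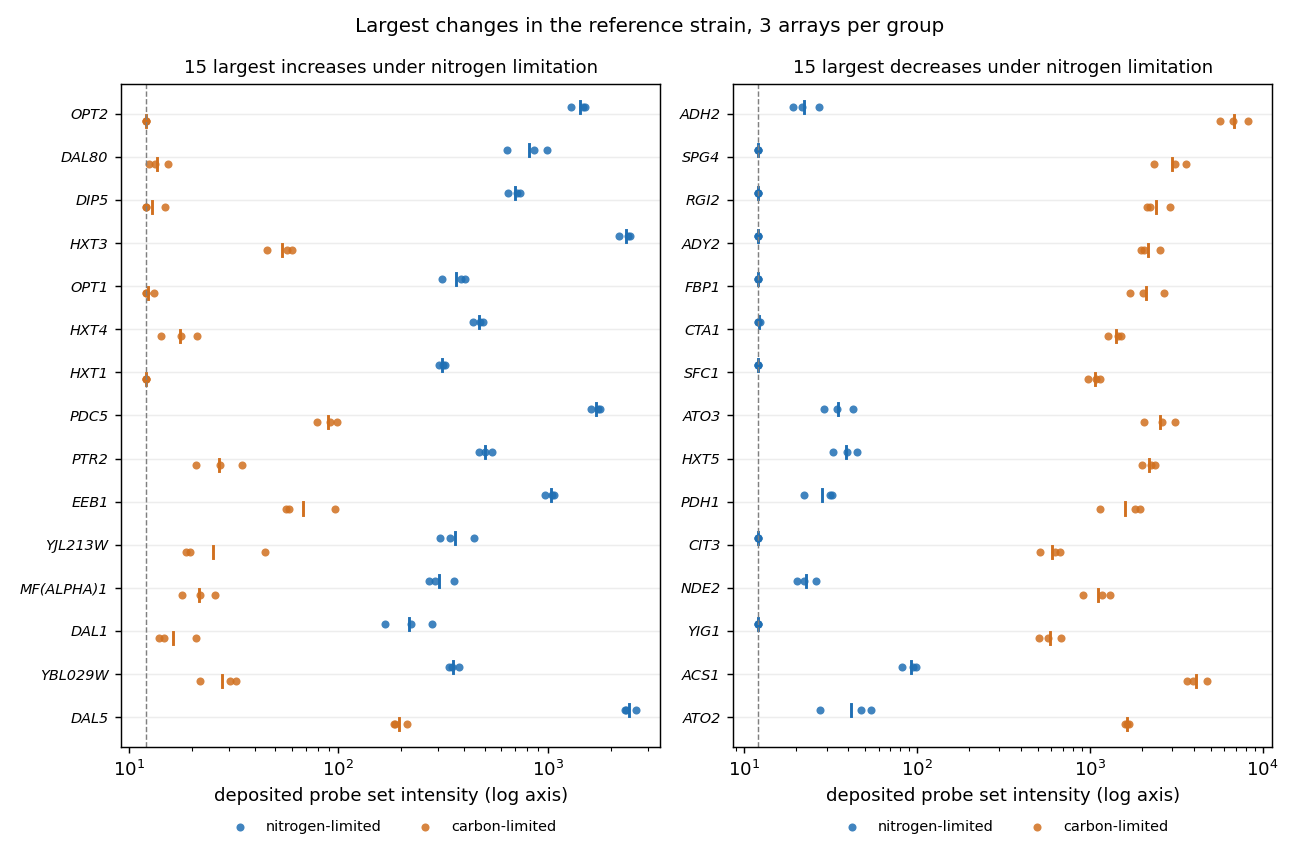
Deposited probe set intensity (log axis) of the 15 genes with the largest increase (left) and the 15 with the largest decrease (right) under nitrogen limitation in the reference strain. Points are arrays, nitrogen-limited above carbon-limited in each row, short bars are geometric means, and values below 12 are drawn at 12 (dashed line), as in the test. The genes were chosen among those whose groups do not overlap, so every row is separated by choice, with ADH2 at 19.1 to 27.0 under nitrogen limitation, against 5669 to 8227 under carbon limitation.

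Transcripts for the route from ethanol to acetyl-CoA were low in the nitrogen-limited, glucose-fed cultures. Of the 16 genes listed for ethanol and acetate oxidation and transport, 12 fell and 1 rose, and the median log2 change was -3.06. ADH2 (YMR303C), the alcohol dehydrogenase that oxidises ethanol, had the largest decrease of all genes tested with values floored at 12. That rank depends on the floor, which holds down other decreases. Over all fits the lowest log2 change was -8.89 for RGI2 and -8.52 for ADH2. ADH2 read 27, 19.1 and 21.5 under nitrogen limitation, against 5669, 8227 and 6722 under carbon limitation. The carbon-limited arrays were all far above the nitrogen-limited ones, a 305-fold difference (log2 change -8.25 ± 0.20 (SE), adjusted p = 2.08e-10). ACS1, the acetyl-CoA synthetase of non-fermentative growth, read 82.4, 98.8 and 94.8 under nitrogen limitation, against 3662, 4751 and 3948 under carbon limitation, without overlap (log2 change -5.48 ± 0.18 (SE), adjusted p = 1.88e-09). ACS2, the synthetase that cells use during growth on glucose, read 821, 634 and 698 under nitrogen limitation, against 1347, 1049 and 815 under carbon limitation, with overlapping groups and an adjusted p of 0.061. Among the aldehyde dehydrogenases, mitochondrial ALD4 fell (log2 change -2.35 ± 0.21 (SE), adjusted p = 8.44e-06) and ALD2 rose (log2 change 1.71 ± 0.23 (SE), adjusted p = 2.64e-04). Their relative ALD5 read 280.1, 191 and 216 under nitrogen limitation, against 236, 218 and 224 under carbon limitation, with an adjusted p of 0.999. The decrease of ALD6, the cytosolic enzyme (log2 change -0.64 ± 0.22, adjusted p = 0.043), had overlapping arrays. It passed under 13 of 21 alternatives, quantile normalization not among them.

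Transporters for small carbon compounds fell together with these enzymes. ADY2, the acetate transporter, read 7.7, 7.9 and 9.3 under nitrogen limitation, against 2069, 2551 and 1971 under carbon limitation. All nitrogen-limited arrays lay below the floor, so the gene was at least 182-fold lower (adjusted p = 1.94e-10). Its relatives ATO3 and ATO2, which are linked to ammonium export, fell 72.8-fold and 39.6-fold (log2 changes -6.19 ± 0.21 and -5.31 ± 0.24). JEN1, the lactate and pyruvate permease, read 42.1, 34.6 and 41.8 under nitrogen limitation, against 1552, 1378 and 1213 under carbon limitation, and no array of one group reached the other (log2 change -5.13 ± 0.18 (SE), adjusted p = 2.79e-09). The glycerol symporter gene STL1 lay between 0.4 and 3.8 under nitrogen limitation, against 193 to 254 under carbon limitation, at least 18.8-fold lower. Glycerol kinase GUT1 (log2 change -2.91 ± 0.22) and the mitochondrial glycerol 3-phosphate dehydrogenase GUT2 (-1.35 ± 0.21) also fell, as did ACH1, which transfers coenzyme A between acetate and succinate (-3.22 ± 0.31).

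Gluconeogenesis and the glyoxylate cycle, which turn acetyl-CoA into sugar, showed the same direction. Of 19 genes listed, 13 fell and 1 rose, with a median log2 change of -1.94. FBP1, fructose-1,6-bisphosphatase, read 9.6, 10.9 and 9.1 under nitrogen limitation, against 2045, 2695 and 1708 under carbon limitation. Its nitrogen-limited values all lay below the floor, which makes it at least 176-fold lower (adjusted p = 3.03e-10). PCK1, the phosphoenolpyruvate carboxykinase that opens the route, read 113, 103 and 113 under nitrogen limitation, against 2928, 4018 and 3851 under carbon limitation (log2 change -5.02 ± 0.18 (SE), adjusted p = 3.73e-09). ICL1, isocitrate lyase, was at 122, 127 and 147 under nitrogen limitation and at 3718, 5134 and 3377 under carbon limitation, again without overlap (log2 change -4.93 ± 0.20 (SE), adjusted p = 9.27e-09). MLS1, malate synthase of the same cycle, kept a nitrogen-limited level of 928 to 1074, against 2428 to 4421 under carbon limitation, and its change was smaller (log2 change -1.70 ± 0.22 (SE), adjusted p = 1.78e-04). The groups of MLS1 did not overlap either.

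Further members supply or carry intermediates. SFC1, which exchanges succinate for fumarate across the mitochondrial membrane, read 5.1, 2.1 and 2.6 under nitrogen limitation, against 1148, 1084 and 981 under carbon limitation, at least 89-fold lower (adjusted p = 2.30e-10). MDH2, the cytosolic malate dehydrogenase (log2 change -4.69 ± 0.19), and IDP2, the cytosolic isocitrate dehydrogenase that makes NADPH (-4.38 ± 0.19), fell too. AGX1, which makes glycine from glyoxylate, read 692, 728 and 815 under nitrogen limitation, against 3179, 4510.2 and 4176 under carbon limitation (log2 change -2.40 ± 0.19 (SE), adjusted p = 3.12e-06). The 1 gene that rose was VID24, a subunit of the ligase that degrades gluconeogenic enzymes when glucose arrives. It read 108, 98.2 and 116 under nitrogen limitation, against 26.7, 20.8 and 34 under carbon limitation, higher on every nitrogen-limited array (log2 change 2.01 ± 0.21 (SE), adjusted p = 2.76e-05). Anaplerotic PYC1 and PYC2 had log2 changes of -0.22 and -0.07 that did not pass (adjusted p = 0.419 and 0.777). The decrease of MDH3 did not pass with the actin ratio in the fit. That of ACO1 passed under 16 of 21 alternatives, quantile normalization not among them.

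Enzymes of the methylcitrate cycle, which breaks down propionyl-CoA, were among the strongest decreases. PDH1 (YPR002W), its methylcitrate dehydratase, read 32.4, 22.1 and 31.4 under nitrogen limitation, against 1951, 1832 and 1153 under carbon limitation (log2 change -5.83 ± 0.24 (SE), adjusted p = 1.04e-08). CIT3, a mitochondrial citrate and methylcitrate synthase, read 9.1, 10.1 and 9.6 under nitrogen limitation, against 673, 633 and 513 under carbon limitation, at least 50.2-fold lower (adjusted p = 1.39e-09). ICL2, which cleaves methylisocitrate, fell 9.18-fold (log2 change -3.20 ± 0.19). No array of one group reached the other for any of the 3 genes, as for 51% of all genes tested.

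Acetyl units enter mitochondria on carnitine in this yeast, and 4 of the 5 genes of that shuttle fell. YAT1 read 100.3, 54.6 and 125 under nitrogen limitation, against 2892, 4157 and 3167 under carbon limitation (log2 change -5.25 ± 0.28 (SE), adjusted p = 1.12e-07). The acetyltransferases YAT2 and CAT2 and the mitochondrial carrier CRC1 had log2 changes of -5.09 ± 0.20, -4.27 ± 0.26 and -4.74 ± 0.22. HNM1, the plasma membrane carrier of choline and carnitine, read 294, 413 and 341 under nitrogen limitation, against 278, 219 and 310.4 under carbon limitation, and its overlapping groups gave an adjusted p of 0.162.

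**Figure D2:**
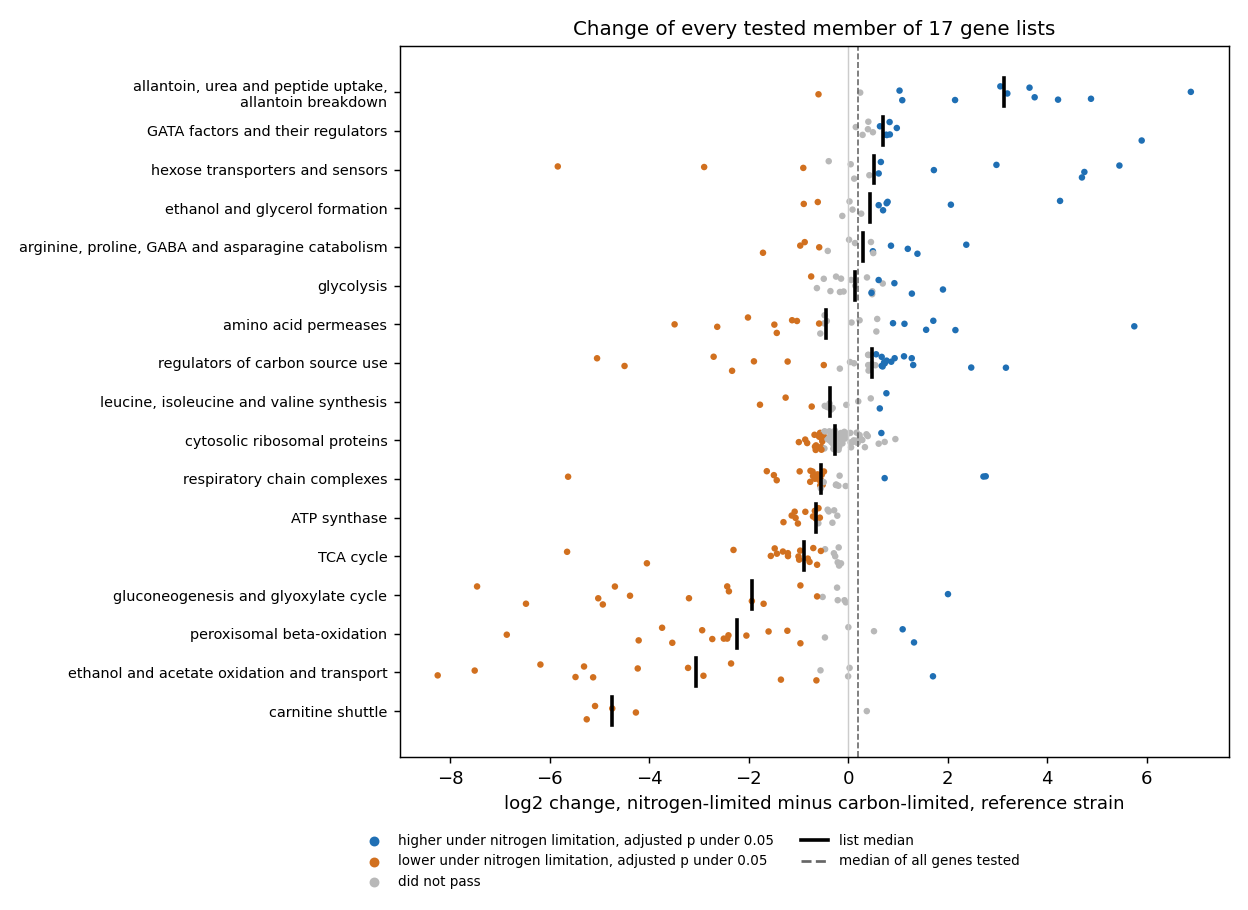
Log2 change (nitrogen-limited minus carbon-limited, reference strain) of every tested member of a selection of gene lists, 1 point per gene, coloured by its call. Black bars are list medians and the dashed line is the median of all genes tested, 0.20. The carnitine shuttle (median -4.74) and ethanol and acetate genes (-3.06) lie furthest to the left, and allantoin, urea and peptide genes (3.13) furthest to the right.

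Of 31 regulators of carbon source use, 14 rose and 7 fell, and the median log2 change was 0.48. The activators of non-fermentable carbon use differed among themselves. CAT8, the activator of gluconeogenic genes, read 19, 10.1 and 13 under nitrogen limitation, against 59.1, 62.4 and 41.2 under carbon limitation (log2 change -1.89 ± 0.23 (SE), adjusted p = 1.07e-04), and ADR1, the activator of ADH2 and peroxisomal genes, read 22.5, 10 and 10.9 under nitrogen limitation, against 120.4, 68.5 and 50.2 under carbon limitation (log2 change -2.33 ± 0.33 (SE), adjusted p = 3.12e-04), with 2 nitrogen-limited arrays below the floor. SIP4, which binds the same promoter element as Cat8, lay below the floor on all nitrogen-limited arrays and at 245 to 313 on the carbon-limited ones, at least 22.5-fold lower (adjusted p = 6.02e-09). HAP4, the regulated subunit of the activator of respiratory genes, also fell (log2 change -1.22 ± 0.21 (SE), adjusted p = 0.00125). The groups of these 4 genes did not overlap, as for 51% of all genes tested. The fatty acid response activator OAF1 and the haem-dependent activator HAP1 were higher instead (log2 changes 0.72 ± 0.17 and 0.69 ± 0.19). Their calls held under 18 and 15 of 21 alternatives, centred arrays not among them. The activators ERT1 and PIP2 and the HAP4 partners HAP2, HAP3 and HAP5 had log2 changes of 0.41, 0.48, 0.12, -0.17 and 0.41 and did not pass.

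Among the glucose repressors, the MIG genes were higher. MIG2 read 126, 78 and 129 under nitrogen limitation, against 7.4, 7.2 and 9.4 under carbon limitation, at least 9.02-fold higher (adjusted p = 7.64e-07), and MIG3, at 22.5 to 35.2 under nitrogen limitation, against 3.9 to 11.9 under carbon limitation, was at least 2.43-fold higher. MIG1 read 95.7, 68 and 95.5 under nitrogen limitation, against 48, 53.8 and 34.4 under carbon limitation, but its call (log2 change 0.94 ± 0.22, adjusted p = 0.00729) was lost with the actin ratio in the fit. NRG1, NRG2 and the corepressor CYC8 had log2 changes of 0.45, 0.40 and 0.55 and did not pass (adjusted p = 0.137, 0.0733 and 0.155), and the increase of TUP1, the partner of Cyc8 (1.31), was lost with the actin ratio too. SIP2, a beta subunit that anchors the Snf1 kinase, fell (log2 change -2.70 ± 0.17 (SE), adjusted p = 3.53e-07) and GAL83, another beta subunit, had a log2 change of 0.87 ± 0.18 whose call was lost with the actin ratio. SNF1 itself read 256, 196 and 218 under nitrogen limitation, against 188, 146 and 173 under carbon limitation and did not pass (adjusted p = 0.107). REG2, a subunit of protein phosphatase 1, read 54.1, 41.6 and 65.2 under nitrogen limitation, against 1356, 2082 and 1879 under carbon limitation (log2 change -5.05 ± 0.23 (SE), adjusted p = 2.13e-08), while the stress activator MSN4 rose (log2 change 2.48 ± 0.21 (SE), adjusted p = 5.84e-06). The count of increases in this list was 8, 9 and 8 in the fits without the first, second and the third nitrogen-limited array, 9 without the second carbon-limited one, 7 on centred arrays and 5 with the actin ratio as a term.

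Of 12 genes for disaccharides and galactose, 1 rose and 4 fell, and the falls numbered 2 with a floor of 25 and 1 among genes above 50 on at least 3 arrays. GAL3, the galactose sensor, read 14.7, 18.3 and 15.2 under nitrogen limitation, against 89.2, 73.2 and 63.8 under carbon limitation, without overlap (log2 change -2.22 ± 0.19 (SE), adjusted p = 5.97e-06). GAL4, the activator of galactose genes, lay below the floor on all nitrogen-limited arrays and at 34.4 to 44.8 on the carbon-limited ones, at least 3.34-fold lower (adjusted p = 2.22e-05). SUC2, invertase, read 96.5, 91.1 and 87.1 under nitrogen limitation, against 209, 91.3 and 154 under carbon limitation, with overlapping groups (adjusted p = 0.0759), and its probe set may also read other genes.

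Peroxisomal beta-oxidation, the sole route of fatty acid breakdown in yeast, fell. Of 18 genes tested 13 were lower and 2 higher, with a median log2 change of -2.23. CTA1, the peroxisomal catalase, read 12.4, 10.4 and 11 under nitrogen limitation, against 1275, 1521 and 1449.8 under carbon limitation. Of its nitrogen-limited values 2 lay below the floor, so the fitted difference of 116-fold is held down by the floor (adjusted p = 1.94e-10). The 3 core enzymes followed: POX1, acyl-CoA oxidase, read 16.3, 13 and 11.5 under nitrogen limitation, against 166, 194 and 188 under carbon limitation (log2 change -3.74 ± 0.18 (SE), adjusted p = 4.81e-08). The size of this fall depended on the processing: over all fits it ran from -4.01 to -1.72, with the call held under all 21 alternatives. FOX2, the multifunctional second enzyme, and POT1, the thiolase that ends each round, fell by log2 changes of -3.53 ± 0.24 and -4.21 ± 0.20. PXA1 and PXA2, the subunits of the transporter that imports acyl-CoA, changed by -2.50 ± 0.20 and -1.60 ± 0.25.

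Both genes that rose act on long-chain fatty acids from the medium. FAA1, the main acyl-CoA synthetase for imported fatty acids, read 622, 444 and 485 under nitrogen limitation, against 210.5, 178 and 227 under carbon limitation (log2 change 1.32 ± 0.19 (SE), adjusted p = 4.01e-04), and FAT1, the fatty acid transporter, had a log2 change of 1.10 ± 0.18. FAA2, the peroxisomal synthetase, went the other way (log2 change -2.93 ± 0.20 (SE), adjusted p = 9.39e-07). Of 21 peroxins, the proteins that build the organelle, 7 fell and none rose, with a median log2 change of -0.27. PEX11, which divides peroxisomes, read 419, 479 and 506 under nitrogen limitation, against 1192, 1559 and 1164 under carbon limitation (log2 change -1.47 ± 0.19 (SE), adjusted p = 1.38e-04). With the actin ratio as a term 3 peroxins fell, and 4 fell in the fits without the second or the third carbon-limited array.

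In the tricarboxylic acid (TCA) cycle, 17 of 24 genes fell and none rose, with a median log2 change of -0.89, and 12 fell with the actin ratio as a term. SDH1, the catalytic subunit of succinate dehydrogenase, read 320.4, 253 and 268 under nitrogen limitation, against 1226, 1350.0 and 1582 under carbon limitation (log2 change -2.30 ± 0.18 (SE), adjusted p = 3.23e-06). Its partners SDH2, SDH3 and SDH4 changed by -1.31 ± 0.16, -1.21 ± 0.18 and -1.48 ± 0.18. KGD1 of the 2-oxoglutarate dehydrogenase (log2 change -1.55 ± 0.18), FUM1, fumarase (-1.43 ± 0.18), and CIT1, the main mitochondrial citrate synthase (-1.0 ± 0.17), fell about as much. IDH2, a subunit of isocitrate dehydrogenase, read 1392, 1424 and 1467 under nitrogen limitation, against 1627, 1599 and 2025 under carbon limitation, and IDP1, the mitochondrial NADP-linked enzyme, 318, 346 and 289 under nitrogen limitation, against 429, 407 and 312 under carbon limitation. Neither passed (adjusted p = 0.213 and 0.294).

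Of the pyruvate carriers MPC3 and MPC1 fell and MPC2 did not pass. MPC1 had a log2 change of -0.98 (adjusted p = 0.0025), and its call held under all 21 alternatives. MPC3, the carrier subunit used in respiratory growth, read 166, 153 and 148 under nitrogen limitation, against 2243, 2984 and 2521 under carbon limitation, without overlap (log2 change -4.05 ± 0.18 (SE), adjusted p = 1.83e-08). MPC2, its counterpart of fermentative growth, read 1089, 1106 and 1049.8 under nitrogen limitation, against 1147, 1444 and 1131 under carbon limitation (log2 change -0.19 ± 0.17, adjusted p = 0.416). PDA1 and PDB1, subunits of pyruvate dehydrogenase, did not pass either (adjusted p = 0.519 and 0.353).

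Respiratory chain genes were lower by small amounts, except for a few isoforms. Of 28 genes, 18 fell and 3 rose, and the median log2 change was -0.55. The count of falls depended on the settings: it was 5 with the actin ratio as a term, 8 under quantile normalization, and 10, 11 and 12 in the fits without the third, the first and the second nitrogen-limited array. NDE2 and NDE1 oxidise cytosolic NADH at the inner mitochondrial membrane. NDE2 read 26, 20.1 and 22.2 under nitrogen limitation, against 912, 1318 and 1171 under carbon limitation (log2 change -5.63 ± 0.20 (SE), adjusted p = 2.73e-09) and NDE1 563, 748 and 591 under nitrogen limitation, against 1696, 1759.7 and 1647 under carbon limitation (log2 change -1.44 ± 0.18 (SE), adjusted p = 1.22e-04). The lactate dehydrogenases CYB2 and DLD1 changed by -1.49 ± 0.21 and -1.63 ± 0.17.

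Genes that rose include isoforms known from low oxygen, although the cultures were aerated. COX5B, the hypoxic subunit of cytochrome c oxidase, read 91, 78 and 84.4 under nitrogen limitation, against 6.9, 11.9 and 13.2 under carbon limitation (log2 change 2.77 ± 0.17 (SE), adjusted p = 3.17e-07), with 2 carbon-limited arrays below the floor. CYC7, the second isoform of cytochrome c, read 138, 87.6 and 110.4 under nitrogen limitation, against 15.5, 16 and 18.8 under carbon limitation (log2 change 2.72 ± 0.20 (SE), adjusted p = 1.93e-06). No carbon-limited array came near the nitrogen-limited ones for either gene. The other gene that rose is AAC3, an ADP/ATP carrier of anaerobic growth, with 18.5, 23.1 and 19.1 under nitrogen limitation, against 11.7, 3.8 and 12.3 under carbon limitation (log2 change 0.73 ± 0.17 (SE), adjusted p = 0.00668), and on centred arrays or with the actin ratio as a term 2 genes of the list rose, COX5B and CYC7. Of 17 ATP synthase genes 11 fell and none rose, with a median log2 change of -0.65, but 2 fell with the actin ratio as a term. ATP15, its epsilon subunit, read 819, 755 and 838 under nitrogen limitation, against 1532, 1916 and 1869.9 under carbon limitation (log2 change -1.13 ± 0.17 (SE), adjusted p = 5.68e-04).

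Hexose transporters showed an exchange of isoforms. Of 14 transporters and sensors tested, 7 rose and 3 fell. HXT1, HXT3 and HXT4 code for carriers that glucose induces. HXT3 (YDR345C) read 2472, 2198 and 2409 under nitrogen limitation, against 57.1, 45.5 and 59.8 under carbon limitation, a 43.8-fold difference (log2 change 5.45 ± 0.18 (SE), adjusted p = 1.88e-09). HXT1 was at 301, 317 and 322 under nitrogen limitation, against 10.4, 12.1 and 9.1 under carbon limitation (log2 change 4.70 ± 0.16 (SE), adjusted p = 2.71e-09), where 2 arrays lay below the floor. HXT4 read 441, 476 and 492 under nitrogen limitation, against 21.2, 14.2 and 17.6 under carbon limitation (log2 change 4.75 ± 0.19 (SE), adjusted p = 8.98e-09). All nitrogen-limited arrays were far above all carbon-limited ones for the 3 genes.

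HXT5, a carrier of slow growth and of cells without glucose, had the reverse pattern, with 45.2, 39.3 and 32.8 under nitrogen limitation, against 2009.6, 2257 and 2399 under carbon limitation (log2 change -5.84 ± 0.18 (SE), adjusted p = 1.46e-09). HXT2, a high-affinity carrier repressed by abundant glucose, fell as well, at 112, 95.4 and 69.1 under nitrogen limitation, against 892, 616 and 551 under carbon limitation (log2 change -2.89 ± 0.24 (SE), adjusted p = 4.20e-06). HXT6 and HXT7 are nearly identical, so their probe sets may read each other's transcript. HXT6 read 1922, 1684 and 1704 under nitrogen limitation, against 2674, 1225 and 1306 under carbon limitation and HXT7 1457, 1326 and 1237 under nitrogen limitation, against 1704, 1067 and 1179 under carbon limitation, with adjusted p-values of 0.748 and 0.862. The first carbon-limited array is the highest of the 6 for both. STD1 and MTH1, which hold the HXT genes repressed without glucose, rose (log2 change 2.98 ± 0.18 (SE), adjusted p = 3.63e-07 and log2 change 1.72 ± 0.22 (SE), adjusted p = 1.52e-04). Among the sensors, SNF3 of low glucose had a log2 change of -0.90 ± 0.20 and RGT2 of high glucose one of 0.66 ± 0.18. SNF3 lost its call with the actin ratio. RGT2 kept its call under 15 of 21 alternatives, quantile normalization not among them.

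**Figure D3:**
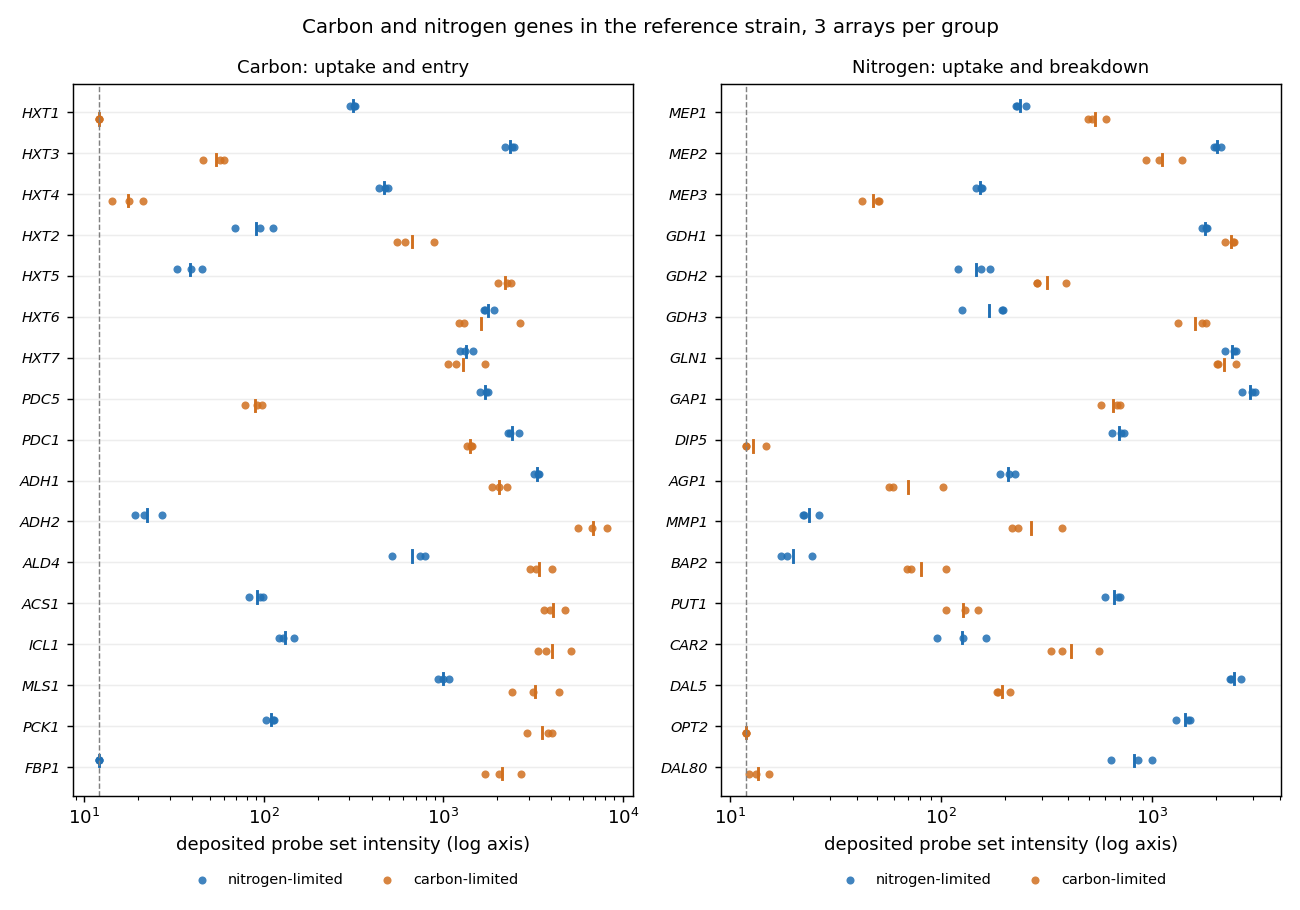
Deposited probe set intensity (log axis) of genes of carbon uptake and entry (left) and of nitrogen uptake and breakdown (right), reference strain. Points are arrays, nitrogen-limited above carbon-limited in each row, bars are geometric means, and values below 12 are drawn at 12 (dashed line). HXT1, HXT3 and HXT4 lie to the right under nitrogen limitation, HXT2 and HXT5 to the left, and HXT6 and HXT7 overlap.

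Glycolysis changed little compared with its feeding and draining steps. The median log2 change was 0.14, below the 0.20 of all genes. Of 19 genes 5 rose, close to the 25.9% of all genes tested, and 1 fell. These counts flip with the scaling: 2 rose and 5 fell on centred arrays, and 9 rose under quantile normalization, while 1, 2 and 2 rose in the fits without the first, second and the third nitrogen-limited array, and 2 and 3 without the second and the third carbon-limited one. TDH1, the glyceraldehyde-3-phosphate dehydrogenase of slow growth, read 1476, 1323 and 1453 under nitrogen limitation, against 410.3, 586 and 820.1 under carbon limitation (log2 change 1.28 ± 0.24 (SE), adjusted p = 0.00189). PFK27, which makes the glycolytic activator fructose-2,6-bisphosphate, read 63.6, 38.3 and 37.4 under nitrogen limitation, against 6.1, 5.0 and 10.1 under carbon limitation, at least 3.75-fold higher (adjusted p = 6.74e-05). TDH3, whose probe set may also read its near-identical relative TDH2, read 3554, 3803 and 3479 under nitrogen limitation, against 4828, 7094 and 6431 under carbon limitation. Its decrease (log2 change -0.74 ± 0.19 (SE), adjusted p = 0.0112) turned to a change of 0.04 under quantile normalization. PGK1, TPI1 and GPM1 of the lower pathway had log2 changes of -0.16, -0.24 and -0.14 that did not pass.

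In ethanol formation the minor pyruvate decarboxylases moved most. PDC5 read 1776, 1739 and 1611 under nitrogen limitation, against 91.5, 98 and 78.7 under carbon limitation, a 19.2-fold difference without overlap (log2 change 4.26 ± 0.17 (SE), adjusted p = 8.98e-09). PDC6, at 151, 137 and 195 under nitrogen limitation, against 36, 32.2 and 47.5 under carbon limitation, rose too (log2 change 2.07 ± 0.21 (SE), adjusted p = 2.50e-05). The main enzyme PDC1 read 2639, 2288 and 2348 under nitrogen limitation, against 1432, 1453 and 1359.6 under carbon limitation and ADH1, the ethanol-forming dehydrogenase, 3418, 3223 and 3374 under nitrogen limitation, against 2054, 2254 and 1862 under carbon limitation. Both were higher by log2 changes of 0.77 ± 0.17 and 0.70 ± 0.17, and neither call held with the actin ratio in the fit. Of 12 genes of ethanol and glycerol formation 6 rose and 2 fell, against 3 increases on centred arrays and 2 increases and no decrease with the actin ratio as a term. In the fits without the first or the second nitrogen-limited or the first carbon-limited array 1 fell. Glycerol 3-phosphate dehydrogenase GPD1 read 951, 600.0 and 765 under nitrogen limitation, against 509.5, 672 and 738 under carbon limitation and did not pass (adjusted p = 0.366). EEB1, an acyltransferase that makes ethyl esters, was among the 15 largest increases, with 1076, 1046 and 975 under nitrogen limitation, against 56.3, 58.2 and 95.8 under carbon limitation (log2 change 3.92 ± 0.22 (SE), adjusted p = 1.61e-07).

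On the nitrogen side, the genes for uptake and breakdown of allantoin, urea and peptides rose most as a group. Of 12 tested 10 rose and 1 fell, with a median log2 change of 3.13. OPT2 (YPR194C), an oligopeptide transporter, had the largest increase of all genes. It read 1509, 1475 and 1296 under nitrogen limitation, against 0.6, 0.5 and 3.7 under carbon limitation. The carbon-limited values all lay below the floor, and OPT2 was at least 119-fold higher (adjusted p = 1.94e-10). OPT1, the glutathione and oligopeptide carrier, read 404, 312 and 384 under nitrogen limitation, against 13.1, 2.7 and 0.8 under carbon limitation (log2 change 4.88 ± 0.18 (SE), adjusted p = 3.41e-09), and PTR2, the di- and tripeptide carrier, 472, 501 and 541 under nitrogen limitation, against 34.6, 20.9 and 27.3 under carbon limitation (log2 change 4.22 ± 0.21 (SE), adjusted p = 4.81e-08). The groups of these 3 carriers did not overlap, as for 51% of all genes tested. The gene that fell was CUP9, the repressor of PTR2. It had a log2 change of -0.60 ± 0.19 (adjusted p = 0.0275), a call lost in the fits without the second or the third nitrogen-limited or the first or second carbon-limited array.

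The allantoin genes ranged widely. DAL5, the allantoate permease, read 2630.0, 2353 and 2327 under nitrogen limitation, against 213, 187 and 185 under carbon limitation (log2 change 3.65 ± 0.17 (SE), adjusted p = 2.80e-08). DAL1, the allantoinase of the first breakdown step, read 223, 166 and 279 under nitrogen limitation, against 14.6, 20.9 and 13.9 under carbon limitation (log2 change 3.75 ± 0.23 (SE), adjusted p = 3.94e-07). DAL4, the allantoin permease, and DAL7, a malate synthase of this pathway, rose by log2 changes of 3.06 ± 0.18 and 3.20 ± 0.23. DCG1, a neighbour of DAL genes with no settled function, rose by 2.15 ± 0.19. DAL3, which ends the pathway by releasing urea, read 663, 898 and 737 under nitrogen limitation, against 564, 587 and 799 under carbon limitation, with overlapping groups (adjusted p = 0.362). The urea permease DUR3 rose (log2 change 1.09 ± 0.19 (SE), adjusted p = 0.00113), and DAL2, allantoicase, had a log2 change of 1.03 ± 0.22 whose call was lost with the actin ratio as a term.

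Among the regulators of nitrogen catabolite repression, DAL80 changed far more than the others. Of 12 GATA factors and their regulators 7 rose and none fell, with a median log2 change of 0.70. DAL80, a GATA repressor that is itself under this control, read 994, 637 and 857 under nitrogen limitation, against 12.4, 15.4 and 13.3 under carbon limitation. It differed 59.8-fold, without overlap (log2 change 5.90 ± 0.20 (SE), adjusted p = 2.71e-09). The activator GLN3 read 30.9, 23.8 and 22.2 under nitrogen limitation, against 26.9, 14.8 and 17.9 under carbon limitation and did not pass (adjusted p = 0.206). GAT1 read 778, 584 and 766 under nitrogen limitation, against 455, 478 and 422 under carbon limitation (log2 change 0.64 ± 0.18 (SE), adjusted p = 0.0178), and URE2, the cytoplasmic anchor of Gln3, had a log2 change of 0.76 ± 0.18. The call of GAT1 held under 16 of 21 alternatives, centred arrays not among them, and that of URE2 was lost with the actin ratio as a term. On centred arrays 4 of the list rose, and 3 did with the actin ratio as a term.

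Ammonium genes moved singly. MEP3, the low-affinity ammonium carrier, read 147, 156 and 155 under nitrogen limitation, against 50.3, 42.5 and 50.9 under carbon limitation (log2 change 1.68 ± 0.17 (SE), adjusted p = 2.31e-05). MEP1 went the opposite way, with 253, 228 and 227 under nitrogen limitation, against 603, 519 and 496 under carbon limitation (log2 change -1.19 ± 0.17 (SE), adjusted p = 3.57e-04). High-affinity MEP2, the ammonium sensor of filamentous growth, read 2119, 2004 and 1952 under nitrogen limitation, against 1381, 934 and 1072 under carbon limitation, but its call (log2 change 0.86 ± 0.19, adjusted p = 0.00496) did not hold with the actin ratio. Of the glutamate dehydrogenases, GDH3 read 195, 126 and 196 under nitrogen limitation, against 1316, 1802 and 1718 under carbon limitation, without overlap (log2 change -3.24 ± 0.22 (SE), adjusted p = 8.46e-07), and the catabolic GDH2 also fell (log2 change -1.11 ± 0.20 (SE), adjusted p = 0.00184). GDH1, the main ammonium-fixing enzyme, read 1811, 1804 and 1721 under nitrogen limitation, against 2202, 2438 and 2412 under carbon limitation and did not pass (adjusted p = 0.0734), although its groups did not overlap. GLN1, glutamine synthetase, and GLT1, glutamate synthase, had log2 changes of 0.13 and 0.09 (adjusted p = 0.581 and 0.702).

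Of 22 genes for amino acid permeases and their regulators, 6 rose, close to the 25.9% of all genes tested, and 8 fell, against 12%. GAP1, the general permease under nitrogen catabolite repression, read 3064, 2670.5 and 2960.4 under nitrogen limitation, against 700.1, 571 and 683 under carbon limitation (log2 change 2.16 ± 0.17 (SE), adjusted p = 3.45e-06). DIP5, the glutamate and aspartate permease, read 709, 734 and 648 under nitrogen limitation, against 14.9, 11.1 and 11.5 under carbon limitation, with 2 carbon-limited arrays below the floor (log2 change 5.75 ± 0.17 (SE), adjusted p = 1.25e-09). AGP1, a broad carrier (log2 change 1.57 ± 0.23 (SE), adjusted p = 4.54e-04), and MUP3, a low-affinity methionine carrier (log2 change 1.13 ± 0.20 (SE), adjusted p = 0.00127), rose as well. CAN1, the arginine permease, was higher too (log2 change 1.71 ± 0.30), a call lost with the actin ratio as a term. AGP3, a broad low-affinity carrier, fell (log2 change -2.63 ± 0.31 (SE), adjusted p = 8.20e-05), as did ALP1, a relative of CAN1 (-1.48 ± 0.20). MMP1, the S-methylmethionine permease, had the largest fall of the list, at 22.6, 22.3 and 26.4 under nitrogen limitation, against 375, 231 and 217 under carbon limitation (log2 change -3.49 ± 0.22 (SE), adjusted p = 4.91e-07). BAP2, the branched-chain amino acid permease, read 18.7, 24.6 and 17.5 under nitrogen limitation, against 106, 72.5 and 69.2 under carbon limitation (log2 change -2.01 ± 0.22 (SE), adjusted p = 4.16e-05). GNP1 for glutamine and HIP1 for histidine fell by log2 changes of -1.43 ± 0.23 and -1.03 ± 0.24. PUT4, the proline permease, read 2678, 2322 and 2673 under nitrogen limitation, against 2319.8, 1646 and 1289 under carbon limitation, with an adjusted p of 0.0576. In the fit without the third carbon-limited array 5 permeases fell, and 4 fell among genes above 50 on at least 3 arrays.

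Catabolic enzymes for proline and arginine moved in opposite directions. PUT1, proline oxidase, read 704, 597 and 689 under nitrogen limitation, against 129.9, 151 and 106 under carbon limitation (log2 change 2.38 ± 0.19 (SE), adjusted p = 3.17e-06), and PUT2, the next enzyme, rose (log2 change 1.20 ± 0.19 (SE), adjusted p = 6.37e-04). Of the arginine enzymes, CAR2, ornithine aminotransferase, read 164, 95.6 and 127 under nitrogen limitation, against 332, 558 and 375 under carbon limitation (log2 change -1.71 ± 0.25 (SE), adjusted p = 4.01e-04), and CAR1, arginase, had a log2 change of -0.96 ± 0.20 that did not pass with the actin ratio. Of 14 genes for arginine, proline, GABA and asparagine breakdown, 5 rose and 4 fell, against 2 and 1 with the actin ratio as a term. Among 11 vacuolar proteases and their inhibitors, 5 rose and 2 fell, against 3 and 1 with the actin ratio in the fit. Both genes that fell code for inhibitors, PAI3 (log2 change -1.56 ± 0.22 (SE), adjusted p = 3.52e-04) and PBI2 (log2 change -0.72 ± 0.20). The call of PBI2 held under 16 of 21 alternatives, quantile normalization not among them. CPS1, carboxypeptidase S, read 387, 449 and 164 under nitrogen limitation, against 53.1, 54.5 and 54.4 under carbon limitation (log2 change 2.50 ± 0.32 (SE), adjusted p = 1.38e-04). APE1, the aminopeptidase that reaches the vacuole by selective autophagy, read 1084, 731 and 850.4 under nitrogen limitation, against 199, 313 and 302 under carbon limitation (log2 change 1.72 ± 0.23 (SE), adjusted p = 1.85e-04). The master protease genes PEP4 and PRB1 had log2 changes of -0.07 and 0.04 (adjusted p = 0.778 and 0.89). Of 18 autophagy genes 3 rose and 1 fell, and of these calls ATG13 alone (log2 change 0.86 ± 0.19 (SE), adjusted p = 0.00519) held under every alternative.

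The Ehrlich pathway, which turns amino acids into fusel alcohols, had its strongest decreases at the aromatic entry. ARO9, the inducible aromatic aminotransferase, read 13.3, 25.3 and 20.1 under nitrogen limitation, against 325, 280.4 and 392 under carbon limitation (log2 change -4.12 ± 0.24 (SE), adjusted p = 2.59e-07). ARO10, the decarboxylase of the next step, was at 12, 7.0 and 11.9 under nitrogen limitation, against 118, 153 and 127 under carbon limitation, at least 11-fold lower (adjusted p = 5.87e-08). ARO8, the other aromatic aminotransferase, was higher (log2 change 0.59 ± 0.17), a call kept under 15 of 21 alternatives, centred arrays not among them. ARO80, their activator, read 19.4, 14.1 and 15.7 under nitrogen limitation, against 14.1, 13.8 and 17.8 under carbon limitation and did not pass (adjusted p = 0.697). PDR12, the pump that exports weak acids including fusel acids, rose, with 426, 609.9 and 533 under nitrogen limitation, against 57.4, 41.8 and 37.2 under carbon limitation (log2 change 3.53 ± 0.22 (SE), adjusted p = 3.43e-07). Of the 16 genes of this list 7 rose and 2 fell, and the pyruvate decarboxylases above are part of it. THI3, a related protein with a role in thiamine regulation, rose as well (log2 change 1.56 ± 0.18 (SE), adjusted p = 8.21e-05). On centred arrays 5 genes fell, and with the actin ratio as a term 4 rose. The count of falls was 1 without any 1 carbon-limited array, where ARO10 had too few arrays above the floor to be tested.

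Among biosynthetic genes for amino acids the calls were a mixture of increases and decreases. Of 14 genes for leucine, isoleucine and valine 2 rose and 3 fell, with a median log2 change of -0.36. On centred arrays none rose and 9 fell, and 6 fell in the fit without the third carbon-limited array. LEU4, the first enzyme of leucine synthesis, read 1024, 903 and 953 under nitrogen limitation, against 2808, 3450.0 and 3621 under carbon limitation, without overlap (log2 change -1.77 ± 0.18 (SE), adjusted p = 2.15e-05). LEU1 and LEU2 of the same pathway read 682, 623 and 594 under nitrogen limitation, against 976, 893 and 629 under carbon limitation and 1599, 1348 and 1679 under nitrogen limitation, against 1885, 2087 and 1869.9 under carbon limitation. Neither passed (adjusted p = 0.163 and 0.139). LEU3, their activator, was higher by a log2 change of 0.64 ± 0.18 (adjusted p = 0.0158). This call held under 14 of 21 alternatives, quantile normalization and centred arrays not among them. GCN4, the general activator of amino acid synthesis, read 2065, 1932 and 1956 under nitrogen limitation, against 2500.2, 2725 and 2184 under carbon limitation (adjusted p = 0.17).

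In other pathways, several entry enzymes fell and others did not pass. LYS20, homocitrate synthase of lysine synthesis, read 1011, 842 and 992 under nitrogen limitation, against 2178, 3153 and 2875 under carbon limitation (log2 change -1.52 ± 0.19 (SE), adjusted p = 1.44e-04). HOM3, aspartate kinase, read 93.7, 98.1 and 112 under nitrogen limitation, against 240.4, 228 and 200.3 under carbon limitation (log2 change -1.14 ± 0.17 (SE), adjusted p = 5.48e-04), and ARO4, which opens aromatic synthesis, fell (log2 change -0.80 ± 0.18 (SE), adjusted p = 0.00627). ILV1, the first enzyme of isoleucine synthesis, had a log2 change of 0.20 and did not pass (adjusted p = 0.417). ARO7, chorismate mutase, rose instead, with 230.3, 284 and 279 under nitrogen limitation, against 79.5, 66.4 and 86.4 under carbon limitation (log2 change 1.77 ± 0.18 (SE), adjusted p = 2.86e-05). Of 20 genes for arginine, lysine and proline 1 rose and 3 fell. Of 19 for histidine and the aromatic amino acids 4 rose and 2 fell. Of 16 for serine, glycine, threonine and asparagine 1 rose and 6 fell, and among all genes tested 25.9% rose and 12% fell. On centred arrays the falls numbered 7, 4 and 10 in these 3 lists, and 1 gene of the histidine and aromatic list rose in the fit with the actin ratio. That list had 1 fall without the second or the third nitrogen-limited array and 4 without the third carbon-limited one. The serine list had 3 falls with the actin ratio as a term and 2 without the second or the third nitrogen-limited array. Of 15 purine and one-carbon genes 4 rose and none fell, and no increase passed on centred arrays or with the actin ratio as a term. Leaving out 1 array gave 1, without the third nitrogen-limited one, to 8 increases, without the first carbon-limited one. Sulfate uptake divided between its carriers. SUL1 read 484, 458 and 519 under nitrogen limitation, against 1299, 1051 and 961 under carbon limitation (log2 change -1.17 ± 0.18 (SE), adjusted p = 6.01e-04), whereas SUL2 read 413, 418 and 468 under nitrogen limitation, against 281, 197 and 152 under carbon limitation, a rise (log2 change 1.09 ± 0.23) that was lost with the actin ratio.

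Stress genes leaned lower in the reference strain, and storage genes went both ways. Of 22 stress and heat shock genes 8 fell and 1 rose, beside 12% and 25.9% of all genes tested. The median log2 change was -0.38, against 0.20 for all genes, and 5 fell with the actin ratio as a term. HSP26, a small heat shock protein, read 238, 191 and 239 under nitrogen limitation, against 1211, 1372 and 1339 under carbon limitation (log2 change -2.56 ± 0.18 (SE), adjusted p = 8.61e-07), and DDR2, a multistress protein, 1197, 1238 and 1429.8 under nitrogen limitation, against 3708, 5607 and 5980.5 under carbon limitation (log2 change -1.96 ± 0.21 (SE), adjusted p = 4.16e-05). GRE1, a hydrophilin of salt and osmotic stress, fell 24-fold (log2 change -4.58 ± 0.23), with 2 nitrogen-limited arrays below the floor. SPI1, a cell wall protein of stationary phase, was the gene that rose (log2 change 1.85 ± 0.18 (SE), adjusted p = 2.00e-05). Among 18 trehalose and glycogen genes 7 rose and 4 fell, against 1 and 13 in the deletion strain. In the reference strain the rises numbered 2 and 4 without the first and the third nitrogen-limited array and 4 without the second carbon-limited one. The rises numbered 2 on centred arrays and 3 under quantile normalization or with the actin ratio as a term. Only 1 of the 7 held under every alternative. TPS1, trehalose 6-phosphate synthase, read 522, 332 and 448 under nitrogen limitation, against 326, 437 and 460.2 under carbon limitation and did not pass (adjusted p = 0.793), and GSY2, the main glycogen synthase, read 212, 197 and 213 under nitrogen limitation, against 136, 161 and 189 under carbon limitation (adjusted p = 0.13). GLG2, a glycogen primer, fell (log2 change -1.47 ± 0.22 (SE), adjusted p = 4.59e-04), and TPS3, a regulatory subunit of the trehalose complex, rose (log2 change 1.18 ± 0.23 (SE), adjusted p = 0.00266).

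Ion uptake genes changed one by one. FET4, the low-affinity iron and metal carrier, read 102, 157 and 109 under nitrogen limitation, against 12.1, 12.8 and 7.4 under carbon limitation (log2 change 3.29 ± 0.20 (SE), adjusted p = 3.19e-07). CTR3, a high-affinity copper carrier, read 406, 449 and 462 under nitrogen limitation, against 1688, 2094 and 1618 under carbon limitation (log2 change -2.03 ± 0.18 (SE), adjusted p = 7.04e-06). FRE4, a ferric reductase, fell (log2 change -2.40 ± 0.16 (SE), adjusted p = 8.60e-07), with 2 nitrogen-limited arrays below the floor. The groups did not overlap for these 3 genes, as for 51% of all genes tested. Of 24 iron and copper genes 5 rose and 7 fell, beside 25.9% and 12% of all genes tested. On centred arrays 3 rose and 11 fell, and 3 rose in the fits without any 1 nitrogen-limited or without the second carbon-limited array. PHO89, the sodium-phosphate carrier, read 22.6, 28.4 and 24.9 under nitrogen limitation, against 290.0, 176 and 174 under carbon limitation (log2 change -3.04 ± 0.22 (SE), adjusted p = 1.74e-06). PHM8, a phosphatase induced by phosphate shortage, rose (log2 change 1.91 ± 0.20 (SE), adjusted p = 3.13e-05). Of 16 phosphate genes 8 rose and 2 fell, and 4 rose with the actin ratio as a term.

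Lipid and cell wall genes showed a few clear changes. INO1, inositol 3-phosphate synthase, read 243, 224 and 281 under nitrogen limitation, against 932, 1326 and 1132 under carbon limitation (log2 change -2.17 ± 0.19 (SE), adjusted p = 7.62e-06), and PIS1, which uses inositol to make phosphatidylinositol, read 663, 866 and 751 under nitrogen limitation, against 300.5, 209 and 262 under carbon limitation (log2 change 1.57 ± 0.20 (SE), adjusted p = 1.27e-04). INO4, an activator of phospholipid genes, rose (log2 change 1.07 ± 0.16 (SE), adjusted p = 5.08e-04). Of 19 fatty acid and phospholipid genes 6 rose and 4 fell, against 3 and 2 in the fits without the second nitrogen-limited or the second carbon-limited array. CWP1, a mannoprotein of the cell wall, read 113, 80.8 and 108 under nitrogen limitation, against 477, 577 and 572 under carbon limitation (log2 change -2.44 ± 0.19 (SE), adjusted p = 3.10e-06), and SED1, the wall protein of stationary cells, fell (log2 change -1.48 ± 0.18 (SE), adjusted p = 8.52e-05). Of 18 wall protein genes 8 fell and 1 rose, against 2 and 1 with the actin ratio as a term. Ergosterol synthesis had 3 increases and 2 decreases among 23 genes, against 1 and 6 on centred arrays, and 1 to 6 and 1 to 4 with 1 array left out, the most increases without the first carbon-limited array.

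Ribosomal protein genes changed by small amounts in the reference strain. Of 81 with a probe set of their own 19 fell and 1 rose, with a median log2 change of -0.26. In the deletion strain 3 of the 81 fell and 28 rose, with a median of 0.25. The count of falls in the reference strain was unstable: 44 fell on centred arrays, 3 under quantile normalization and none with the actin ratio as a term. In the fits without the first, second and the third nitrogen-limited array 4, 10 and 6 fell. Without the second and the third carbon-limited array 6 and 10 fell. RPS26A had the largest fall of them and read 3014, 3196 and 2967 under nitrogen limitation, against 4326, 6098 and 8499 under carbon limitation (log2 change -0.99 ± 0.23 (SE), adjusted p = 0.00722). Its highest value is on the array with the highest actin ratio, and its call was lost under quantile normalization. Its probe set may also read its near-identical copy RPS26B. Ribosomal genes are short, and the part of transcript length and RNA quality in this result was not tested. In the mitochondrial ribosome 7 of 72 genes fell and 2 rose, against 1 and none with the actin ratio as a term, and 2 to 9 and none to 3 with 1 array left out. Of 28 genes for ribosome assembly and RNA polymerase I 2 rose and none fell, against no increase on centred arrays and 10 in the fit without the first carbon-limited array.

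Mating genes of the a type, which also check the strain, were higher under nitrogen limitation. Of 7 a-cell genes 5 rose and none fell, with a median log2 change of 1.32, and their summed intensity ran from 7681 to 9092 under nitrogen limitation, against 3246 to 5347 under carbon limitation. STE2, the alpha-factor receptor, read 673, 661 and 682 under nitrogen limitation, against 141, 122 and 73.6 under carbon limitation (log2 change 2.63 ± 0.23 (SE), adjusted p = 8.24e-06), and STE6, the a-factor exporter, 334, 286 and 278 under nitrogen limitation, against 82.4, 68.3 and 66.4 under carbon limitation (log2 change 2.05 ± 0.18 (SE), adjusted p = 6.53e-06). BAR1, the protease that degrades alpha-factor, rose (log2 change 1.89 ± 0.21 (SE), adjusted p = 4.30e-05). The a-factor gene MFA2 read 2484, 3363 and 3076 under nitrogen limitation, against 1718, 2662 and 3199 under carbon limitation, with overlapping groups (adjusted p = 0.394).

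The 5 alpha-cell genes were low but none was at 0. They summed to 456 to 542 under nitrogen limitation, against 196 to 235 under carbon limitation. The sum includes the alpha-factor gene MF(ALPHA)1, at 270.0 to 357 under nitrogen limitation, against 17.9 to 25.8 under carbon limitation. Of the 4 genes tested MF(ALPHA)1 rose and STE3 fell, and the median log2 change was 0.0. SAG1 and AFB1 had log2 changes of 0.04 and -0.03 and did not pass (adjusted p = 0.895 and 0.935). STE3, the a-factor receptor of alpha cells, read 19.6, 19.6 and 20.7 under nitrogen limitation, against 36.4, 25.3 and 30.4 under carbon limitation (log2 change -0.61 ± 0.18), lower without overlap. Its call held under 13 of 20 alternatives. It was lost with a floor of 25 and without any 1 nitrogen-limited array. MF(ALPHA)1, the alpha-factor gene, was one of the 15 largest increases in this MATa strain. It read 270.0, 289.9 and 357 under nitrogen limitation, against 25.8, 17.9 and 21.7 under carbon limitation, without overlap (log2 change 3.81 ± 0.20 (SE), adjusted p = 8.16e-08). What part cells of another mating type have in it was not tested. Of 8 meiosis genes tested 2 rose and 2 fell, and 1 or 2 did each way with 1 array left out. IME1, the inducer of meiosis, read 20, 14 and 14.4 under nitrogen limitation, against 43.2, 60 and 78 under carbon limitation (log2 change -1.88 ± 0.24 (SE), adjusted p = 1.43e-04), and SPS4, a sporulation gene, 104, 109 and 117 under nitrogen limitation, against 29.7, 11.9 and 21.2 under carbon limitation (log2 change 2.48 ± 0.28 (SE), adjusted p = 5.91e-05).

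Some of the largest changes belong to none of these groups. SPG4 (YMR107W), needed for survival at high temperature in stationary phase, read 9.0, 10.6 and 12 under nitrogen limitation, against 2361, 3625 and 3097 under carbon limitation, at least 248-fold lower (adjusted p = 1.94e-10). RGI2, a protein of respiratory growth with no settled function, read 4.4, 7.1 and 4.2 under nitrogen limitation, against 2154, 2930.5 and 2235 under carbon limitation, at least 201-fold lower (adjusted p = 1.94e-10). YIG1, which binds glycerol 3-phosphatase, was at least 48.8-fold lower, with 3.2, 4.3 and 3.4 under nitrogen limitation, against 511, 683 and 574 under carbon limitation. Among the increases, YJL213W read 446, 343 and 306 under nitrogen limitation, against 19.5, 18.7 and 44.4 under carbon limitation, and YBL029W read 376, 338 and 347 under nitrogen limitation, against 30.4, 21.9 and 32.4 under carbon limitation. They are open reading frames without a gene name, with log2 changes of 3.83 ± 0.31 and 3.67 ± 0.19.

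The limitation effect in the leu3 deletion strain gives a second set of 3 against 3 arrays with lower actin ratios. There 1230 of 5217 genes were higher under nitrogen limitation, 23.6% of those tested, and 1181 were lower, 22.6%, with a median log2 change of 0.03. Across the 5173 genes tested in both strains the changes had a Pearson r of 0.78 and a Spearman rho of 0.57, over genes that share arrays and are not independent. Of the genes higher in the reference strain and tested in the deletion strain, 689 of 1356 were called higher there too and 44 lower. Of the lower ones 418 of 626 were called lower and 32 higher. At 4-fold or more in the reference strain, 74 of 76 and 107 of 112 had the same call in the deletion strain. The opposite call was given to 2 of these 112. At 16-fold all 9 and all 40 had the same call. The size of the change often differed between the strains all the same. The test of that difference, described below, passed for 45 of the 76 and 43 of the 112. It passed for 8 of the 9 and 14 of the 40, beside 18.3% of all genes.

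**Figure D4:**
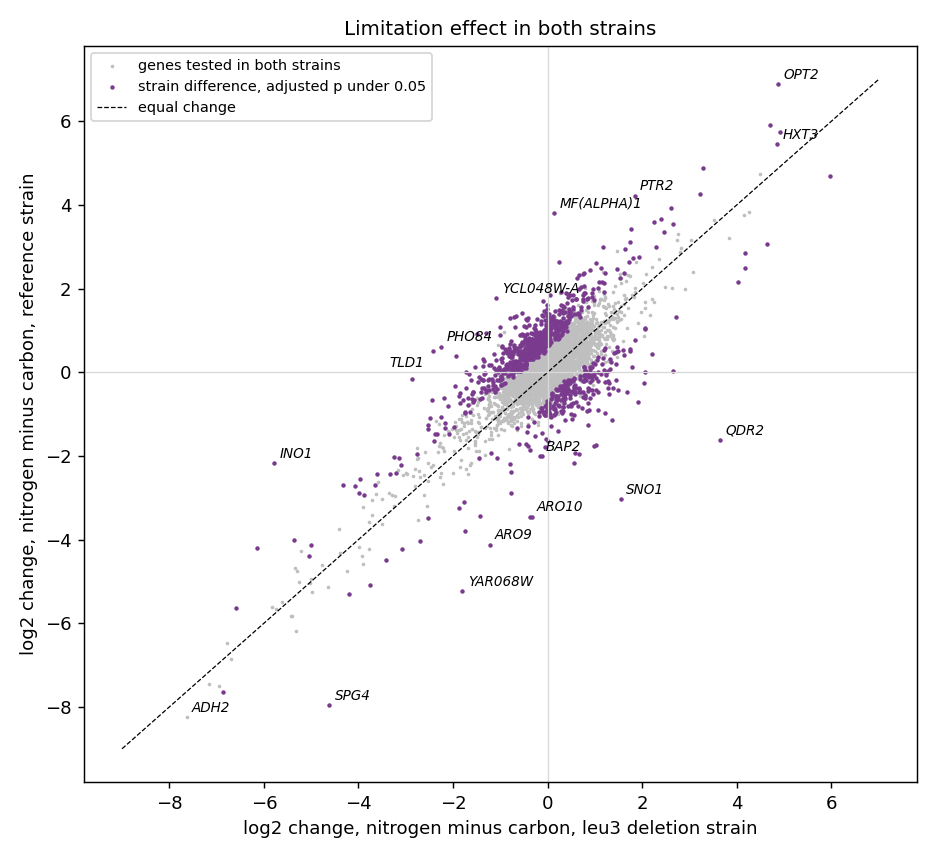
Log2 change (nitrogen-limited minus carbon-limited) in the reference strain (vertical axis) against that in the leu3 deletion strain (horizontal axis), 1 point per gene tested in both. Purple points differ between the strains at an adjusted p under 0.05, and the dashed line marks equal change. ADH2 (-8.25 in the reference strain, -7.63 in the deletion strain) lies near the line, and QDR2 (-1.61 in the reference strain, 3.65 in the deletion strain) and MF(ALPHA)1 (3.81 in the reference strain, 0.13 in the deletion strain) lie far from it.

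The difference between the strains' limitation effects was tested over all 12 arrays. It passed for 976 of 5321 genes, 18.3% of those tested, of which 697 had the higher change in the reference strain and 279 the lower. On centred arrays the split was 245 higher and 594 lower. The number of genes that passed was 417 with the actin ratio as a term and 644 without the third nitrogen-limited deletion array. Of the genes measured, 3 of 19 for gluconeogenesis and the glyoxylate cycle passed this test and 5 of 16 for ethanol and acetate, beside 18.3% of all genes. So did 15 of 23 for amino acid permeases and their regulators and 7 of 12 for allantoin, urea and peptides. ADH2 changed by -8.25 in the reference strain and by -7.63 in the deletion strain, and the difference of -0.62 ± 0.25 did not pass (adjusted p = 0.104). ACS1 and ICL1 did not pass either, with differences of 0.14 ± 0.20 and 0.08 ± 0.23.

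OPT2 changed by 6.89 in the reference strain, against 4.87 in the deletion strain (adjusted p of the difference 4.51e-05). PTR2 changed by 4.22 in the reference strain, against 1.84 in the deletion strain (4.56e-05), GAP1 by 2.16 in the reference strain, against 1.08 in the deletion strain (0.00196), and PUT1 by 2.38 in the reference strain, against 0.78 in the deletion strain (5.77e-04). These carriers and enzymes of nitrogen uptake and use had the larger increase in the reference strain. DCG1 and DAL4 differed the other way, with log2 changes of 2.15 and 3.06 in the reference strain, against 4.03 and 4.65 in the deletion strain (3.06e-04 and 7.21e-04). BAP2, which Leu3 is known to activate, changed by -2.01 in the reference strain, against -0.15 in the deletion strain (3.05e-04).

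For several biosynthetic genes the fitted changes had opposite signs in the strains. ILV2, which makes acetolactate for isoleucine and valine, changed by -0.47 in the reference strain, against 1.07 in the deletion strain (adjusted p of the difference 2.74e-04), and ILV5, the next enzyme, by -0.73 in the reference strain, against 0.54 in the deletion strain (0.00244). In the reference strain ILV2 did not pass (adjusted p = 0.0572), and the call of ILV5 was lost under quantile normalization. HOM3 changed by -1.14 in the reference strain, against 0.36 in the deletion strain (3.99e-04), and ARG7 of arginine synthesis by -0.61 in the reference strain, against 0.89 in the deletion strain (8.45e-04). The call of ARG7 in the reference strain was lost with the actin ratio as a term and without any 1 of the arrays except the second carbon-limited one. Of the 14 genes for leucine, isoleucine and valine 7 passed the test of the difference, and of the 20 measured for arginine, lysine and proline 10 did, against 18.3% of all genes. CAR1, arginase, also had opposite signs, with a log2 change of -0.96 in the reference strain and 1.21 in the deletion strain (6.21e-05).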

How the data were processed

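Each array measured the messenger RNA of 1 culture sample on a 1-colour oligonucleotide array of 9335 probe sets. The deposited values are intensities as the authors left them, and their trimmed mean was 149.94 to 149.96 on every array, so the arrays had been scaled to a common level. Neither the software nor the background method or detection calls is given in the sources used here. Of the probe sets 6504 had 1 gene, 328 had several and 2503 had none, by the platform annotation matched to RefSeq names. A gene measured by more than 1 probe set (315 genes) was represented by that of highest mean.

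The log2 values were computed here from the deposited intensities, after any value below 12 had been raised to 12. Genes above 12 on at least 3 of the arrays in a fit were tested with limma 3.58.1 in R 4.3.3 on the 6 arrays of a strain, and on 12 arrays for the strain difference. Adjusted p-values are Benjamini-Hochberg over all genes tested, with 0.05 as the threshold. All adjusted p-values in the text are limma's. The fits were tested on simulated data. With 3 arrays a group, the number of arrays limits the precision.

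The genes named come from the 15 largest called changes each way without overlap, all members of the main gene lists, the called members with the largest changes (up to 6) of the others among 40 lists, and the 5 largest strain differences each way. AAC3 falls outside this rule and was named after its values were seen. Members and lists were chosen with earlier results of these data known. Alternatives covered the floor, the filter, the scaling, the choice of probe set, the variance model, the actin ratio and single arrays left out.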

Additional observations from a re-analysis of the deposited data

Results flagged for a closer look

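The limitation effect differed between the strains by limma's test of the difference over 12 arrays for 976 genes, and those with the 5 largest differences each way follow. Values are log2 changes under nitrogen limitation. QDR2, an exporter of drugs and cations, changed by -1.61 in the reference strain and by 3.65 in the deletion strain, a difference of -5.26 (adjusted p = 1.43e-10). SNO1, a gene of vitamin B6 metabolism, changed by -3.04 in the reference strain and by 1.55 in the deletion strain, a difference of -4.59 (adjusted p = 3.06e-07). YAR068W, whose probe set may read related genes, changed by -5.24 in the reference strain and by -1.80 in the deletion strain, a difference of -3.44 (adjusted p = 3.37e-07). SPG4 fell in both strains, and the difference was -3.34 (adjusted p = 3.36e-07). ARO10 changed by -3.46 in the reference strain and by -0.34 in the deletion strain, a difference of -3.12 (adjusted p = 2.27e-07).

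In the other direction, MF(ALPHA)1 changed by 3.81 in the reference strain and by 0.13 in the deletion strain, a difference of 3.68 (adjusted p = 4.26e-07). INO1, lower under nitrogen limitation in both strains, changed by -2.17 in the reference strain and by -5.79 in the deletion strain, a difference of 3.62 (adjusted p = 8.01e-08). TLD1 changed by 0.51 in the reference strain and by -2.43 in the deletion strain, a difference of 2.94 (adjusted p = 4.51e-05). PHO84, the high-affinity phosphate carrier, changed by 0.61 in the reference strain and by -2.26 in the deletion strain, a difference of 2.87 (adjusted p = 4.51e-05). Its change in the reference strain alone lost its call under 10 of 18 alternatives, centring among them. YCL048W-A changed by 1.77 in the reference strain and by -1.08 in the deletion strain, a difference of 2.85 (adjusted p = 2.74e-04). Changes of genes at or below the floor in one group are held down by the floor.

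A control probe set for an added bacterial transcript, ThrX, is outside every comparison and gave a signal on 2 arrays. It read 3094.8 on the second and 2747.7 on the third nitrogen-limited array of the reference strain, against 1.6 or less elsewhere.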

How the results depend on the processing

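All 96 named genes with a change of at least 4-fold kept their call under each alternative that tested them, and of all 302 named genes called in the reference strain 172 did. The actin 3'/5' ratio as a term ended 113 of the named calls, centring 46, and leaving out 1 array between 16 and 51. With the actin ratio as a term, 737 genes differed in the reference strain, 444 higher and 293 lower, and the strain difference passed for 417 genes. On arrays centred on their medians 681 genes were higher and 1067 lower, of which 245 were at least 2-fold higher and 454 at least 2-fold lower. With log2(value + 16) and no floor 279 genes were at least 2-fold higher. These counts moved by over 1.5 times, and the cause was not tested. The strain difference passed for 642 genes without carbon-limited reference arrays 2 and 3.

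Leaving out 1 array gave 1379 to 2151 genes in the reference strain, 915 to 1513 higher and 442 to 638 lower, with 429 to 610 at least 2-fold higher and 253 to 311 at least 2-fold lower. In the deletion strain it gave 1896 to 2411, and for the strain difference 644, without the third nitrogen-limited deletion array, to 1409. Among the 412 named genes followed, the direction turned for 3 that were called in either of the fits compared. Other genes were not checked for this. HXT6 changed by -0.60 without carbon-limited arrays 2 and 3, a fit that leaves 1 carbon-limited reference array. TDH3 and CCW12 changed by 0.040 and 0.039 under quantile normalization (adjusted p = 0.864 and 0.869).

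Arrays of the same number did not deviate together, with correlations of -0.115, -0.313 and -0.081, against -0.09 to 0.214 for unlike numbers. Deviations of 3 arrays from their group mean cancel out, so these values cannot settle whether the numbers pair the samples. The replicate block gave 1790 genes in the reference strain and 857 for the strain difference. Low intensities limit what can be seen, since 23.96% to 29.81% of probe sets on the reference arrays lay below the floor of 12.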
